A study of Homo sapiens with 6 samples.

Results

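The genes described here encode RNA polymerase II and the general transcription factors that place it at promoters. A gene is called marked when the summit of a GABPA peak falls no more than 1 kb from one of the 2 ends of its RefSeq span on GRCh38. The list holds 44 of 19974 protein-coding genes of the autosomes and X, namely 12 polymerase subunits, 17 genes of TFIID and 15 other general factors. It is defined by function and not by a peak value. GABPA occupancy was measured by ChIP-seq. All libraries came from the human melanoma line A-375, with 1 ChIP library and 1 input per condition. The conditions were a clone lacking exon 2 of the GABP B1 subunit that then received a TERT knock-in, a clone with a knockout at ROSA26, and parental cells without a knockout. The last pair are the controls. Each edited line was a single clone, so the B1 knockout, the TERT knock-in and the clone cannot be told apart. With 1 library per condition there was no replicate check and no test between conditions, and all intervals below cover counting error only. Peak lists carry no expression values, so the identity of the line was not checked against marker genes.

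Transcription of a protein-coding gene starts when TFIID, built from TBP and the TAF proteins, settles on the promoter. TFIIA and TFIIB stabilise it, TFIIF brings the polymerase, and TFIIE and TFIIH complete the complex, in which TFIIH opens the DNA and its CDK7 kinase phosphorylates the polymerase tail. GABP is a factor of many housekeeping promoters. Its GABPA subunit, an ETS protein, reads sites built around GGAA, and its B subunits carry the activation domain and can join GABPA molecules at neighbouring sites.

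The promoter sequences below show where such sites lie at members that have a promoter window. Chosen were those with the strongest parental peaks among members with a B1 knockout peak, and among members without one. POLR2G (parental fold 6.02, no B1 knockout peak) has no window and was left out. The sequences come from the RefSeq promoter table (GRCh38.p14), which holds 300-base windows from 250 bases before to 50 bases after an annotated start. Each is printed 5′ to 3′ on the strand of its gene. Capitals mark CGGAAG, or CTTCCG where the motif lies on the other strand. The first 4 belong to genes with a peak in all 3 lists. They are GTF2H3 (chr12:123633579-123633878, plus strand), TAF13 (chr1:109075954-109076253, minus strand), POLR2C (chr16:57462429-57462728, plus strand) and GTF2H1 (chr11:18322317-18322616, plus strand).
GTF2H3: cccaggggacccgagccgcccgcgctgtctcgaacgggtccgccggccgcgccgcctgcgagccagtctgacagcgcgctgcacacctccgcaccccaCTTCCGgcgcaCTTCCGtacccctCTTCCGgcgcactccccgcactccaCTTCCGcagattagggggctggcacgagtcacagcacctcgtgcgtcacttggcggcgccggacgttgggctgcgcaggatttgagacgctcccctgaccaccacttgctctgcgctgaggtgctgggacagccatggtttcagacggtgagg
TAF13: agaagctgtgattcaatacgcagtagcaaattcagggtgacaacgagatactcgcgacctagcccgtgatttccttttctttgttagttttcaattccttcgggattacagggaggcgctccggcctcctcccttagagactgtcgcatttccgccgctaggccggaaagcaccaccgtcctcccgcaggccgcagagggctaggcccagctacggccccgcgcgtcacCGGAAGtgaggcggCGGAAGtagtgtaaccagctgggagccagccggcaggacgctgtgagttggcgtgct
POLR2C: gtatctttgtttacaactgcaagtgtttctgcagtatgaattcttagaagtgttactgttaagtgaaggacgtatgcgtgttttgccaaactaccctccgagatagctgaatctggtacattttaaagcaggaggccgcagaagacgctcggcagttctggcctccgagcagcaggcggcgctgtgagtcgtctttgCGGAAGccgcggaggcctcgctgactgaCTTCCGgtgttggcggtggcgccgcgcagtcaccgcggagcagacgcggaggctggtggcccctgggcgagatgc
GTF2H1: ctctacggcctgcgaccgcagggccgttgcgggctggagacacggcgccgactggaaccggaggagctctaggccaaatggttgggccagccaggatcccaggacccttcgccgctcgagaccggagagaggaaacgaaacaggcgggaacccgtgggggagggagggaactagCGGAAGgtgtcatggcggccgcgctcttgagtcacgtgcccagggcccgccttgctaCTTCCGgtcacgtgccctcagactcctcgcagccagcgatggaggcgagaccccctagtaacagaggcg
The next pair had peaks in all 3 lists at annotated starts inside the gene, with high folds in both controls. These windows were picked after the values were seen. They are POLR2H (chr3:184363111-184363410, plus strand) and TAF12 (chr1:28643018-28643317, minus strand).
POLR2H: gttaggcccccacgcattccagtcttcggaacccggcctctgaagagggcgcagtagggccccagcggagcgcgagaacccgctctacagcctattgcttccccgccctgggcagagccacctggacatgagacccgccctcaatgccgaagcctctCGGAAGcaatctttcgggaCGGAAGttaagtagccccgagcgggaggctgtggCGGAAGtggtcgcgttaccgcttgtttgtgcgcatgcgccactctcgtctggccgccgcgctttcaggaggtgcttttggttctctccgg
TAF12: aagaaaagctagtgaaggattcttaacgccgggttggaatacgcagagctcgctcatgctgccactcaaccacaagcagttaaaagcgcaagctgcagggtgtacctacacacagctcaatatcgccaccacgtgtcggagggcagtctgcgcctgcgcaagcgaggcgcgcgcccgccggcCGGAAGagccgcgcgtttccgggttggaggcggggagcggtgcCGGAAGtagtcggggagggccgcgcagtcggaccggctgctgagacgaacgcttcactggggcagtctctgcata
The last 4 belong to genes with a peak in both controls and none in the B1 knockout list. They are TAF1 (chrX:71366107-71366406, plus strand), CDK7 (chr5:69234636-69234935, plus strand), GTF2H4 (chr6:30907957-30908256, plus strand) and TAF7 (chr5:141320735-141321034, minus strand).
TAF1: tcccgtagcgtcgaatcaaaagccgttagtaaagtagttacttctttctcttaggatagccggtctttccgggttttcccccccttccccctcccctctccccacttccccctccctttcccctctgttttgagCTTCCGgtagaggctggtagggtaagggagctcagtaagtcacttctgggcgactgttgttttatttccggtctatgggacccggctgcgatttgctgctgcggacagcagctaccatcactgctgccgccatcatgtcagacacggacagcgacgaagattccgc
CDK7: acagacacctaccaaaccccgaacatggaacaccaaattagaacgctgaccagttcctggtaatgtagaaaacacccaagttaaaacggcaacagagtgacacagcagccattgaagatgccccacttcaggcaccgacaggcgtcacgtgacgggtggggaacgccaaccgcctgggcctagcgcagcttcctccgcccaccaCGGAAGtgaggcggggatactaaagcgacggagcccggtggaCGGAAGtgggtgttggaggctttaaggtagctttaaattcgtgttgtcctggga
GTF2H4: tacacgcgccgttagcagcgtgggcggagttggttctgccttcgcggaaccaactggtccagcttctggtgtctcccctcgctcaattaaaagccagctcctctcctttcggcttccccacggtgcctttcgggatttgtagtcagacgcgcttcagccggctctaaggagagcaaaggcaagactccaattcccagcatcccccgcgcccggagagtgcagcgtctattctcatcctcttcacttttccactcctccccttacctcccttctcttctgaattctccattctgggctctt
TAF7: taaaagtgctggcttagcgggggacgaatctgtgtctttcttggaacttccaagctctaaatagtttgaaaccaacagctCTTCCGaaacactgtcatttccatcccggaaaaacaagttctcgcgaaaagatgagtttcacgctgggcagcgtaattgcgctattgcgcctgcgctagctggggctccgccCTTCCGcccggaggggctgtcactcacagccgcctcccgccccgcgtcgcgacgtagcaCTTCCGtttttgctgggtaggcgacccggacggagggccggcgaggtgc
GTF2H3 holds 4 CGGAAG motifs, TAF7 and POLR2H 3 each, and TAF13, POLR2C, GTF2H1, TAF12 and CDK7 2 each. TAF1 holds 1 and GTF2H4 none.

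Of the 44 genes, 10 were marked in the B1 knockout library, 21 in the ROSA26 library and 18 in the parental library. The shares were 22.7% (exact 95% interval 11.5 to 37.8), 47.7% (32.5 to 63.3) and 40.9% (26.3 to 56.8). Over all protein-coding genes, 9.32% were marked in the B1 knockout, 18.5% in the ROSA26 and 15.5% in the parental library. The intervals of the members thus lay above the share of all genes in each of the 3 lists. Every member with a B1 knockout peak was also marked in both controls, and no member was marked in the parental list alone. The other 23 genes had no summit near an end in any list, which shows that no peak passed the authors' threshold there, not that GABPA was absent.

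**Figure D1:**
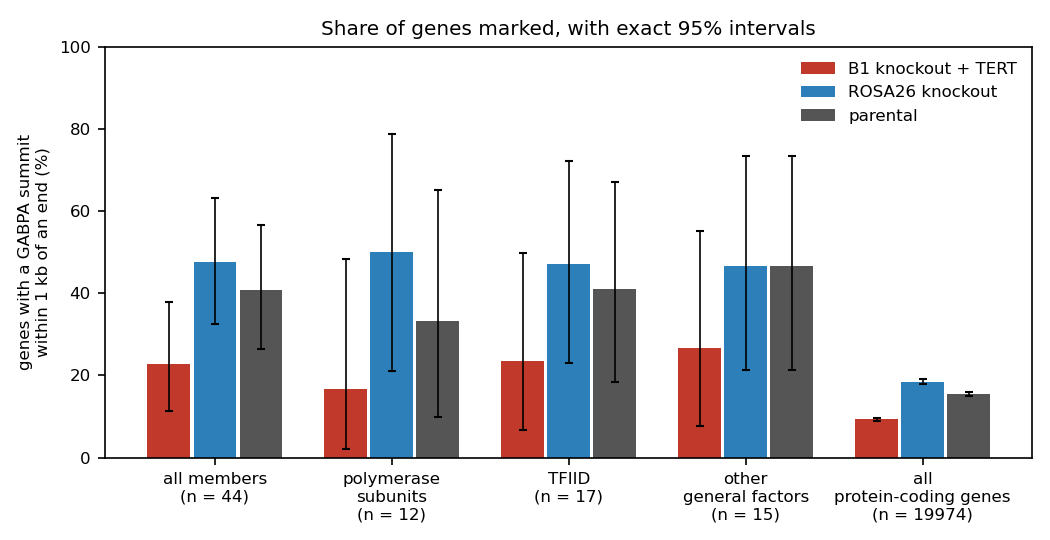
Percentage of genes with a GABPA summit within 1 kb of an end, for the 44 members, their 3 classes and all 19974 protein-coding genes, with a bar per library and exact 95% intervals. The member bars stand at 22.7, 47.7 and 40.9% for the B1 knockout, ROSA26 and parental libraries, and the intervals of the 3 classes overlap in each library.

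The intervals of the 3 classes overlapped in every list. Polymerase subunits were marked in 2 of 12 cases in the B1 knockout (16.7%, 2.09 to 48.4), 6 of 12 in ROSA26 (50%, 21.1 to 78.9) and 4 of 12 in parental cells (33.3%, 9.92 to 65.1). TFIID genes were marked in 4 of 17 (23.5%, 6.81 to 49.9), 8 of 17 (47.1%, 23 to 72.2) and 7 of 17 (41.2%, 18.4 to 67.1) in the same order of libraries. The other general factors were marked in 4 of 15 (26.7%, 7.79 to 55.1), 7 of 15 and 7 of 15 (46.7%, 21.3 to 73.4 in both controls). In the B1 knockout the interval of each class held the 9.32% of all genes. The parental interval of the polymerase subunits held the 15.5% of all genes. The other class intervals of the controls lay above the shares of all genes, 18.5% in ROSA26 and 15.5% in parental cells.

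Among the polymerase subunits, the catalytic pair carried no peak. POLR2A and POLR2B, which together form the active centre, had no listed summit near an end or inside the gene in any library. POLR2C, which starts the assembly of the enzyme (chromosome 16, 57462679 to 57472009), was marked in every list, at a fold enrichment of 5.14 in the B1 knockout, 10.4 in the ROSA26 and 10.4 in the parental library. Fold enrichment here is the authors' ratio of the summit pileup to its local background, and folds are read only within their own list. The summits lay 72, 37 and 84 bp upstream of the annotated start and rested on 77, 237 and 194 reads, as solved from the fold and p-value of each summit. POLR2K, a small subunit that RNA polymerases I and III also use (chromosome 8, 100150636 to 100154003), was the other subunit marked by the rule in all lists, with folds of 4.70, 8.74 and 7.31. Its peak was shared with FBXO43, whose end lay 76, 28 and 76 bp from the 3 summits.

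By the rule, the remaining subunits had lower control folds than these or were unmarked. POLR2G and POLR2D form the stalk of the enzyme. POLR2G had folds of 6.81 in ROSA26 and 6.02 in parental cells, with summits 1 bp from the start coordinate of its span, and no B1 knockout peak. POLR2D was marked in ROSA26 alone, at fold 3.92. POLR2J, the partner of POLR2C, was also marked in ROSA26 alone (4.27), and it has near-identical copies in the genome between which reads may be split. POLR2F, another subunit common to the 3 polymerases, had folds of 3.43 and 3.59 in ROSA26 and parental cells, with summits 32 and 16 bp from the nearest end of C22orf23. POLR2E, POLR2I and POLR2L had no peak. Of the 5 subunits used by all 3 polymerases 1 was marked in the B1 knockout and 2 in each control, and of the 7 subunits of polymerase II alone 1, 4 and 2 were marked. The shares of all genes were 9.32%, 18.5% and 15.5%, and the intervals of both groups held them.

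POLR2H and TAF12 carried peaks that lay beyond 1 kb from either end of the span and had high folds in both controls. POLR2H, a subunit shared by the 3 polymerases (chromosome 3, 184361710 to 184368591), has an annotated start at 184363361 inside its span. Summits lay 59, 55 and 50 bp upstream of that start in the B1 knockout, ROSA26 and parental lists, with folds of 5.86, 12.2 and 13.2 on 63, 201 and 218 reads. TAF12, a histone-fold TFIID subunit (chromosome 1, 28602850 to 28648269), has an annotated start at 28643067. Its summits lay 62, 19 and 47 bp upstream, with folds of 9.77, 13.1 and 13.9 on 147, 337 and 309 reads. An end of TAF12-DT lay within 1 kb of each of these summits. In the parental list the folds of POLR2H and TAF12 stood at percentiles 91.7 and 93.6, and among members only GTF2H3 had a higher one. In the ROSA26 list they stood at percentiles 85.3 and 88.4, and in the B1 knockout list at 50.8 and 84.2. The rule counts TAF12 as marked in ROSA26 alone, through a separate peak of fold 3.18 at the outer end of its span, where RNU11 and TAF12-DT lie. No other member had a summit inside the gene away from both ends. Genes with such an internal summit and none near an end made up 0.846% of all protein-coding genes in the B1 knockout, 2.36% in ROSA26 and 1.73% in parental cells.

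**Figure D2:**
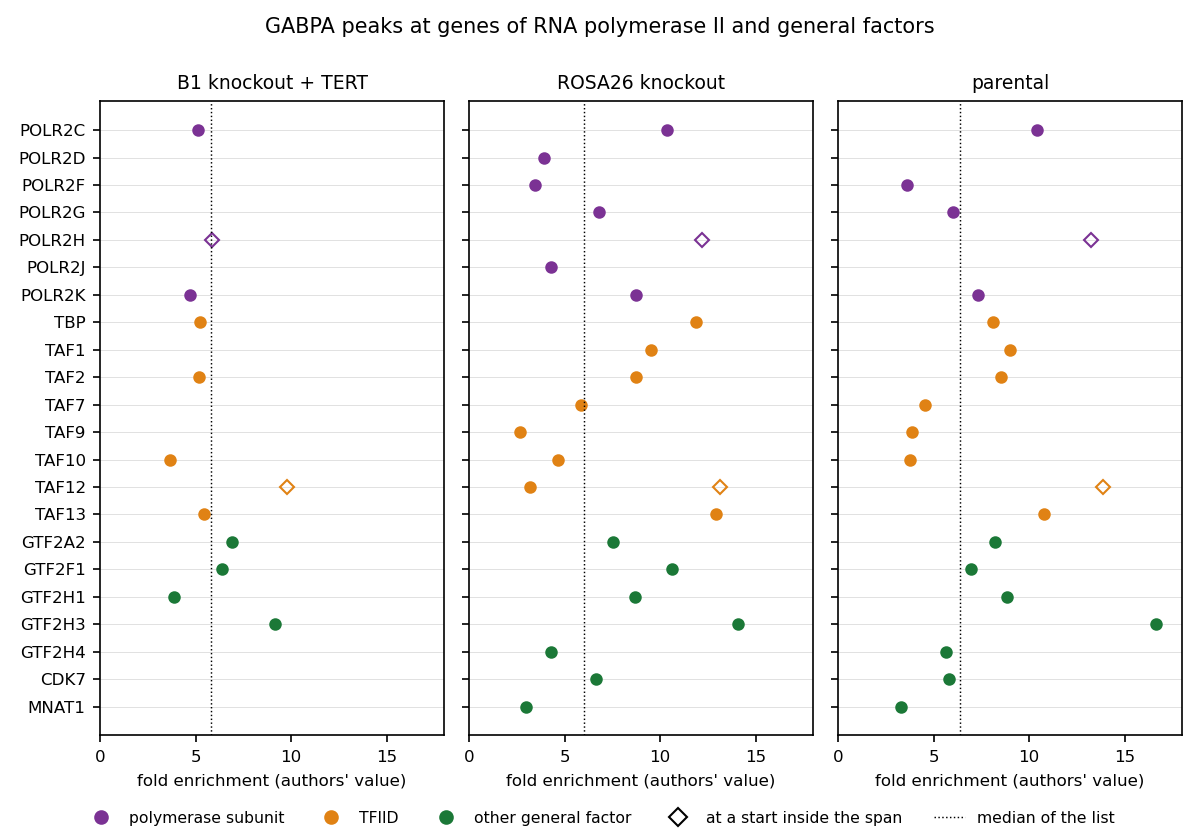
Fold enrichment of the GABPA peak at each member with a listed peak, in the B1 knockout, ROSA26 and parental lists from left to right. Circles are peaks within 1 kb of a gene end, open diamonds are the peaks of POLR2H and TAF12 at starts inside the span, and the dotted line is the median of the whole list (5.81, 6.02 and 6.36). GTF2H3 has the highest fold in both control lists, and 3 circles of the B1 knockout list lie above its median.

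Within TFIID, the genes of TBP, TAF2, TAF10 and TAF13 were marked in all 3 lists. TBP, the TATA-binding protein (chromosome 6, 170554369 to 170572859), had folds of 5.20 in the B1 knockout, 11.9 in ROSA26 and 8.10 in parental cells, with summits 95, 96 and 110 bp upstream of the start. The end of PSMB1, a proteasome gene, lay 967, 966 and 952 bp from these summits. Both controls listed a second peak at the PSMB1 side, 1057 bp (ROSA26, fold 6.21) and 1045 bp (parental, 5.56) from the TBP start. TAF13 (chromosome 1, 109064140 to 109076003) had folds of 5.45, 12.9 and 10.8, on 117, 285 and 237 reads, and its summits lay 6, 13 and 10 bp upstream of its start. TAF2, which helps TFIID recognise the initiator, had folds of 5.19, 8.74 and 8.51. TAF10 had the weakest of these peaks, with folds of 3.66, 4.67 and 3.75. The nearest end of TPP1 lay 472, 544 and 522 bp from the TAF10 summits.

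TAF1, TAF7 and TAF9 were marked in the controls alone. TAF1, the largest TFIID subunit and its scaffold (chromosome X, 71366357 to 71530525), had folds of 9.53 in ROSA26 and 9.0 in parental cells and no B1 knockout peak. TAF7, which binds TAF1, had folds of 5.84 and 4.52. TAF9 had 2.64 and 3.86 at a start near AK6 and RAD17, whose nearest end lay 262 bp (ROSA26) and 259 bp (parental) from the summit, against 262 and 272 bp for the TAF9 span. TAF3, TAF4, TAF4B, TAF5, TAF6, TAF8, TAF9B, TAF11 and TAF15 had no summit within reach. TAF11 had control peaks just outside it, 1244 bp (ROSA26, fold 4.01) and 1123 bp (parental, 3.27) from an end. TFIID holds its histone-fold subunits as pairs. In 4 of these pairs (TAF13 with TAF11, TAF12 with TAF4, TAF9 with TAF6, TAF10 with TAF3 or TAF8) the first gene had a control peak at an annotated start and the second had none within reach. These pairs were compared after the values were seen, and the gene with the peak was named first, so that direction carries no information. TAF8 has no promoter window, so no peak at an annotated start could be counted for it. At an annotated start 20% of all genes were marked in ROSA26 and 16.9% in parental cells. How often such pairs differ by the marked share alone was not tested.

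Of the other general factors, GTF2A2, GTF2F1, GTF2H1 and GTF2H3 were marked in all 3 lists. GTF2H3, a core subunit of TFIIH (chromosome 12, 123633829 to 123662604), had the strongest peak of any member under the rule in both controls. Its folds were 9.17 in the B1 knockout, 14.1 in ROSA26 and 16.6 in parental cells, where it ranked 72 of 3024 peaks. The summits rested on 128 reads (95% counting interval 107 to 152) in the B1 knockout, 347 (311 to 386) in ROSA26 and 321 (287 to 358) in parental cells. The nearest end of EIF2B1, a translation initiation factor gene, lay 128, 55 and 44 bp from these summits. Both control summits thus lay nearer to EIF2B1 than to GTF2H3. In the B1 knockout the summit was 15 bp upstream of the GTF2H3 start, against 88 bp in ROSA26 and 99 bp in parental cells. That span of 84 bp was the widest among the 18 members with a peak in 2 or more lists, whose median was 26 bp.

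Of the other TFIIH genes, GTF2H1 (core) had folds of 3.87, 8.69 and 8.83 and its summits lay 347, 310 and 357 bp from the nearest end of HPS5. GTF2H4 (core) had folds of 4.29 in ROSA26 and 5.62 in parental cells and none in the B1 knockout. Of the kinase module, CDK7 had 6.61 and 5.81, and MNAT1, which assembles it, had 2.95 and 3.27, both without a B1 knockout peak. CCNH, the cyclin of CDK7, and the core genes GTF2H2 and GTF2H5 had no peak. GTF2H2 lies in a duplicated region with near-identical copies, where short reads are hard to place. In all, 2 of the 8 TFIIH genes on the list were marked in the B1 knockout (25%, 3.19 to 65.1) and 5 in each control (62.5%, 24.5 to 91.5). Over all genes the shares were 9.32% in the B1 knockout, 18.5% in ROSA26 and 15.5% in parental cells. Among the 7 genes of TFIIA, TFIIB, TFIIE and TFIIF the same pair was marked in every list (28.6%, 3.67 to 71.0, an interval that holds each of these shares). GTF2A2, the small TFIIA subunit, had folds of 6.89, 7.54 and 8.21, and GTF2F1, the large TFIIF subunit, had 6.37, 10.6 and 6.92. GTF2A1, GTF2B, GTF2E1, GTF2E2 and GTF2F2 had no peak.

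Of the 18 members marked in both controls, which is the state of 15.3% of all genes, 10 also had a B1 knockout peak and are called kept (55.6%, 30.8 to 78.5). Over all genes marked in both controls the share was 60.4%, which lies within that interval. Polymerase subunits were kept in 2 of 4 cases, TFIID genes in 4 of 7 and the other factors in 4 of 7. Which members were kept went with their parental fold. In 4 equal bins of parental fold over all such genes, from weakest to strongest, 1 of 5, 1 of 4, 5 of 6 and 3 of 3 members were kept. The shares of all genes in these bins were 8.36% (6.49 to 10.5), 48.3% (44.7 to 51.9), 87.3% (84.8 to 89.6) and 97.8% (96.5 to 98.7).

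A pair of members departed from this order. Such cases occur among all genes too, of which 8.36% were kept in the bin of TAF10 and 87.3% in that of TAF1. TAF10 was kept with a parental fold of 3.75, and its B1 knockout summit held 39 reads (27.7 to 53.3). TAF1 was not kept with a parental fold of 9.0, in the bin from 7.08 to 10.3. Its summit held 157 reads (133 to 184) in ROSA26 and 148 (125 to 174) in parental cells. Apart from these, all kept members had a parental fold of at least 6.92 and all others one of at most 6.02. The most frequent local background was 9.86 reads in the B1 knockout, 14.2 in ROSA26 and 15.4 in parental cells, and the part of read depth in the missing peaks was not tested.

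**Figure D3:**
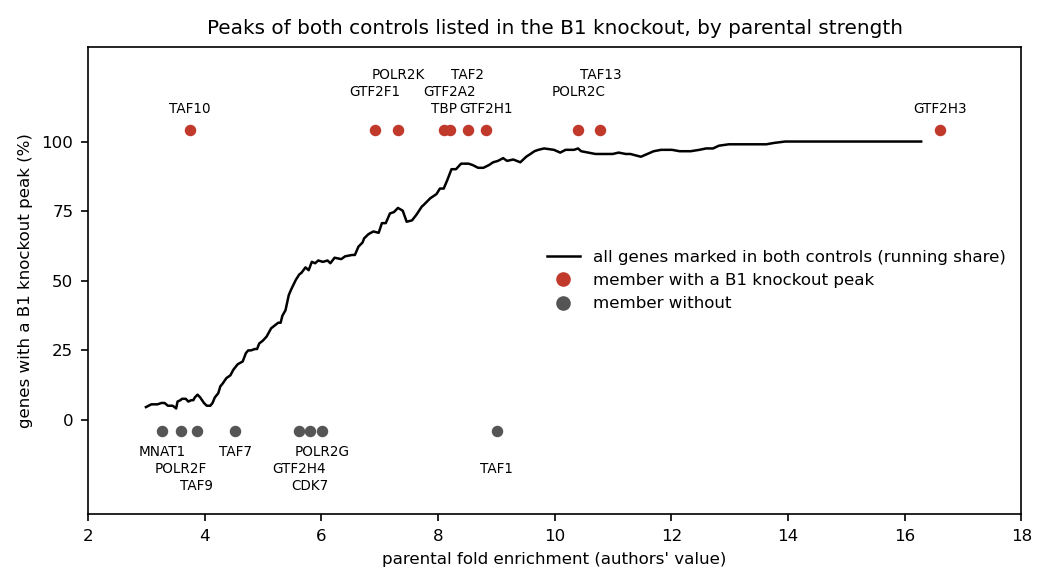
Share of genes marked in both controls that also had a B1 knockout peak (black line, running share over neighbouring genes) against the parental fold enrichment. Points are the 18 members, drawn along the top with a B1 knockout peak and along the bottom without, and TAF1 is the member without a peak at the highest parental fold, 9.0.

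List length bears on these counts, because the B1 knockout list has 1660 peaks against 3857 in ROSA26 and 3024 in parental cells. With the 1660 strongest peaks of each list by −log10 p, 10 members were marked in the B1 knockout, 10 in ROSA26 and 12 in parental cells, against 9.32%, 9.46% and 9.50% of all genes. Of the 10 marked in both controls at that length, as were 9.0% of all genes, 9 were kept, and the exception was TAF1. Over all genes 89.0% were kept at that length.

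Most summits of the members lay close to a span end. They fell within 200 bp of a span end in 10 of 10, 20 of 21 and 17 of 18 marked members in the B1 knockout, ROSA26 and parental lists, with TAF9 as the exception. Over all peaks near a gene end the shares were 87.3% (85.5 to 89.0), 81.3% (79.8 to 82.7) and 83.1% (81.6 to 84.6). The promoter table matched 36 of the 44 members. Counted at annotated starts in place of span ends, 10, 18 and 17 of these 36 members were marked, against 10.3%, 20% and 16.9% of the 15813 protein-coding genes with an annotated start. POLR2H and TAF12 were then marked in all lists, and the B1 knockout list kept 10 of the 17 members with a start peak in both controls (58.8%, 32.9 to 81.6), against 61.0% (59.1 to 62.9) of all genes.

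ETS-type sites were frequent at these promoters. CCGGAAG, searched on both strands, was found in the windows of 14 of the 36 members (38.9%, 23.1 to 56.5) and of 16.5% (15.9 to 17.1) of all genes. The shorter CGGAAG, which every CCGGAAG contains, was found in 22 of 36 (61.1%, 43.5 to 76.9) and in 29.7% (29.0 to 30.4) of all genes. At least 2 CGGAAG in a window occurred in 13 members and in 8.42% of all genes. Each CCGGAAG site of members whose promoters are not shown above is printed here with 10 bases on either side, in the direction of the motif, which is in capitals, so that flanks can be compared between genes with and without a peak.
With the strand of the motif, the sites are at GTF2A2 (chr15:59657517-59657543, plus strand), GTF2F1 (chr19:6393196-6393222 and chr19:6393146-6393172, plus), POLR2F (chr22:37953648-37953674, plus), POLR2D (chr2:127858125-127858151, plus), TAF9 (chr5:69369542-69369568, plus), GTF2A1 (chr14:81221396-81221422, minus), TAF3 (chr10:7818373-7818399, minus) and GTF2H2 (chr5:71067714-71067740, plus).
GTF2A2: agctgacgacCCGGAAGtgctcgcgga
GTF2F1 upstream: gccgcctaacCCGGAAGcgaaaccctc
GTF2F1 downstream: gaaaaggtaaCCGGAAGaggcgctcaa
POLR2F: gtcctgcctcCCGGAAGtgatttcctc
POLR2D: accagcgccgCCGGAAGcagaagcgcg
TAF9: cagggaggagCCGGAAGgggcgggcgg
GTF2A1: gcgccagaggCCGGAAGccacgccacg
TAF3: tggaagccggCCGGAAGcgggcgtggg
GTF2H2: taggggcgccCCGGAAGtcattccgcc
GTF2A2 and GTF2F1 had peaks in all 3 lists, POLR2F and TAF9 in both controls and POLR2D in ROSA26, whereas GTF2A1, TAF3 and GTF2H2 had none. Of the 17 CCGGAAG sites of all members, 8 were followed by T. Those at GTF2A2, GTF2H1, GTF2H3, POLR2C, POLR2F, TAF12 and TAF13 belonged to genes with a peak at a start. Only that of GTF2H2, where reads are hard to place, belonged to a gene without one. The sites of GTF2A1 and TAF3 were followed by C, as were sites of GTF2F1, POLR2D and TAF1, which had peaks. Whether this base goes with a peak was not tested.

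Peaks and motifs went together. Of the 14 members with CCGGAAG, 7 were marked at a start in the B1 knockout, 11 in ROSA26 and 10 in parental cells. Of the 22 without it, 3, 7 and 7 were marked. Over all genes, 41.3%, 66.3% and 60.1% of those with the motif and 4.13%, 10.9% and 8.38% of those without were marked. None of the 14 members without CGGAAG had a B1 knockout peak at a start (0%, 0 to 23.2), and 2 of them, GTF2H4 and MNAT1, had a peak in both controls. Over all genes without CGGAAG the shares were 2.48% in the B1 knockout, 7.54% in ROSA26 and 5.58% in parental cells, so 14 genes are too few to set the members apart. Of the 17 members marked at a start in both controls, 8 of 11 with 2 or more CGGAAG were kept, 2 of 4 with 1 and 0 of 2 with none. The shares over all genes were 74.8% (72.0 to 77.5), 56.9% (53.8 to 59.9) and 45.3% (41.3 to 49.4). GTF2A2 and TBP were kept with 1 motif, and TAF1 and POLR2F were not. A motif count also goes with peak strength, and their parts were not separated here.

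The summits lay close to the motifs. Motifs were searched only in the 300-base windows, where these summits also lay, and this alone keeps the distances short. Distances to other motifs were not measured. From the nearest CCGGAAG in the window, the median distance was 30 bp in the B1 knockout (7 members), 24 bp in ROSA26 (11) and 19.5 bp in parental cells (10), against 19 bp over all genes in each list. The widest were 110 bp at GTF2H3 in the B1 knockout and 79 and 65 bp at TAF1 in ROSA26 and parental cells. At POLR2H the 3 summits fell among its 3 CGGAAG motifs, which lie 91, 72 and 38 bp upstream of the inner start. At TAF12 the parental summit lay between its motifs at 66 and 23 bp upstream. At TBP the single CGGAAG lay 32 bp upstream of the start, 63, 64 and 78 bp from the summits.

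**Figure D4:**
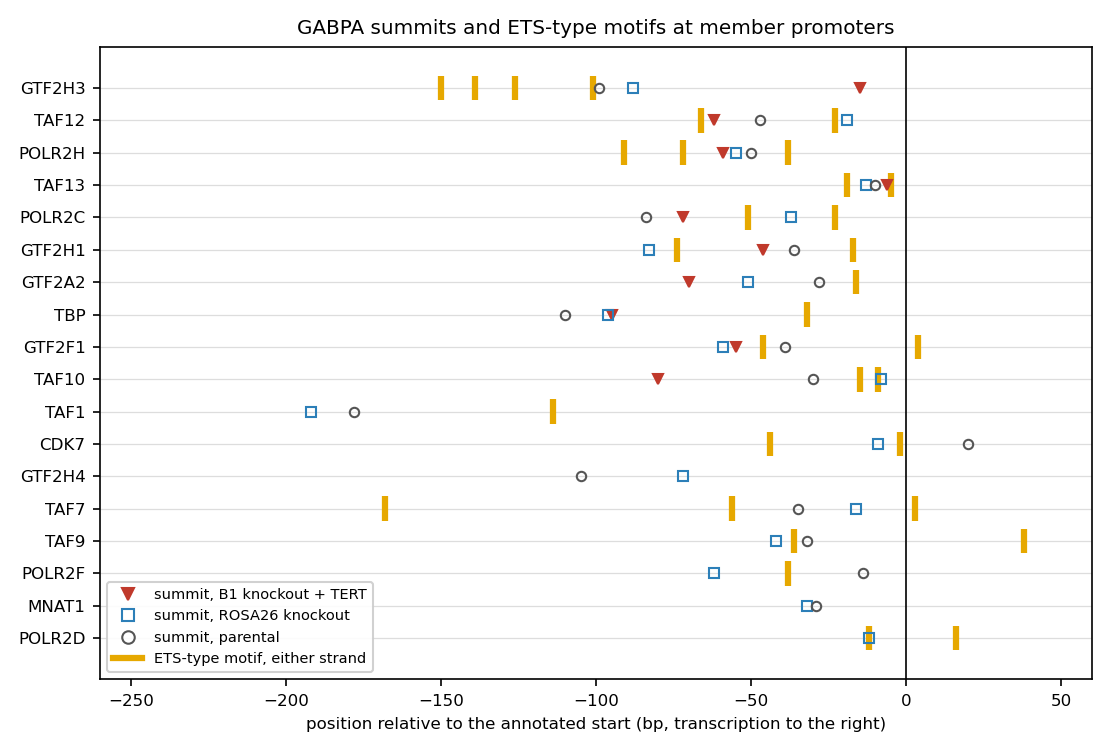
Positions of GABPA summits and of the 6-base ETS-type motif (bars, either strand) relative to the annotated start at 0, for the 18 members with a summit within 1 kb of an annotated start. Triangles, squares and circles are the B1 knockout, ROSA26 and parental lists. All but 1 of the summits drawn lie upstream of the start, the exception being the parental summit of CDK7, and GTF2H4 and MNAT1 have no bar.

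Other genes of the pathway, in lists set by function, are given with their folds in the B1 knockout, ROSA26 and parental lists. Over all genes, 9.32%, 18.5% and 15.5% were marked in these lists. Of all genes marked in both controls, 60.4% were kept. Of 31 elongation and pausing factors, 11, 17 and 16 were marked in the B1 knockout, ROSA26 and parental lists, and 11 of 16 marked in both controls were kept, with NELFE (8.91, 18.3 and 15.7) and CTR9 (11.8, 18.9 and 13.8) the strongest kept. ELOA (6.48 in ROSA26 and 7.03 in parental cells) and SKIC8 (5.22 and 4.72) were not kept. Of 18 polymerase assembly factors and tail phosphatases, 7, 10 and 9 were marked and 7 of 9 kept, PIH1D1 (8.26, 14.3 and 16.4) and RUVBL2 (5.43, 6.47 and 9.38) among them. Of the 5 genes of TFIIH helicases and TBP regulators, 2, 4 and 3 were marked. ERCC3, the TFIIH helicase that opens the promoter, had folds of 8.05, 13.7 and 13.1, DR1 was also kept, and DRAP1 (4.46 and 3.94) was not. Of 10 paralogues of general factors, 1, 5 and 2 were marked, with TAF6L kept (6.04, 9.09 and 7.39) and TBPL1 (6.70 and 3.54) not kept.

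Mediator and the machinery of RNA polymerases I and III are the groups most like the members. Of 33 Mediator genes, 11, 17 and 15 were marked, and 11 of 15 were kept (73.3%, 44.9 to 92.2). Of 42 polymerase I and III genes, 15, 23 and 19 were marked, and 15 of 19 were kept (78.9%, 54.4 to 93.9). The share of the members, 10 of 18, was lower than both, and the 3 intervals overlap widely. Each of them also holds the 60.4% kept over all genes, and the lists were not matched for parental fold. MED8 had folds of 10.8, 17.1 and 17.1, and BRF2 had 21.4, 21.3 and 23.6, above every member in each list.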

How the data were processed

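GABPA ChIP-seq of 3 conditions was used as 3 peak lists. Peaks were called by the authors per ChIP sample on hg38, and Bowtie2, SAMtools and MACS2 are named in the submitters' processing notes, with no versions. The thresholds and the role of the inputs were not given in the sources used here. Deposited with each list were the summit's fold over local background, its −log10 p and −log10 q, and a score equal to 10 times the −log10 q with decimals dropped. The input libraries were not analysed here. Summits were set against RefSeq gene spans (GRCh38.p14, the coordinates of hg38, 1-based), and a peak counts for each gene in reach. The members, gene lists and tests were chosen with earlier results of these data known. Shares carry exact Clopper-Pearson 95% intervals from SciPy 1.17.1 (Python 3.11.15, pandas 2.3.3), which cover counting error only, since reads without molecular identifiers are not independent molecules. Depth is not given in the lists, so summit reads were solved from fold and −log10 p with MACS2's formulas. The solution fell within 0.1 of a whole read for 1659 of 1660 B1 knockout, 3851 of 3857 ROSA26 and 3024 of 3024 parental peaks, and the solver was tested on simulated data. All members may be named. Of other genes, each list names at most the 2 strongest parental peaks kept and the 2 not kept in the B1 knockout, and some are left out. Promoters were printed for the 4 strongest members of each kind with a window, none from chromosome 8. Alternatives changed the reach, the peaks counted, the threshold, the list length, the overlap and the motif.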

Additional observations from a re-analysis of the deposited data

How the results depend on the processing

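Over 15 results and 102 alternative values, 94 stayed within 1.5 times the reported count and 8 did not. With equal list lengths, 10 members were marked in ROSA26 (9.46% of all genes) and 10 in both controls (9.0%). The ROSA26 counts were then 2 polymerase subunits, 4 TFIID genes and 4 other factors, and the parental TFIID count was 4. The motif CGGAAG was found in 22 of 36 members and CCGGAAGT in 8. Kept members numbered 10 of 18 with a 500 bp reach (60.9% of all genes), 11 of 20 with 2 kb (60.2%) and 8 of 14 with the nearest gene end only (57.9%). In that last setting GTF2H3 was marked in neither control, and POLR2K not in ROSA26, because a neighbouring gene lay nearer to the summit. Kept members were 10 of 17 at annotated starts (61.0%) and 12 of 20 with summits anywhere in the gene (59.4%). With a −log10 q of at least 10, where TAF10 was not kept, they were 9 of 16 (58.1%), and with equal lengths 9 of 10 (89.0%). A peak overlap of 1 bp gave 10 of 18 (60.5%), and one of 50% of each peak gave 10 of 18 (59.3%). No paired analysis was possible because each condition has 1 library. Summit reads of the listed peaks were lower in the B1 knockout library (median 82, against 122 in ROSA26 and 132 in parental cells), which limits what its list can show. They are the ChIP signal itself and do not measure read depth, whose part in the missing peaks was not tested.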

Other observations

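Other promoter motifs were searched in the same 300-base windows, on both strands. The GC box GGGCGG was found in 24 of 36 members (66.7%) and in 64.3% of all genes. The TATA box TATAAA was found in 2 of 36 members (5.56%, 0.680 to 18.7), GTF2B and TAF4B, and in 12.4% of all genes, and neither gene had a GABPA peak. The NRF1 motif was found in 2 of 36 members (5.56%, 0.680 to 18.7), POLR2F and POLR2H, and in 1.99% of all genes. The YY1 motif was found in 1 of 36 (2.78%, 0.0703 to 14.5), TAF5, and in 2.23% of all genes. For each gene the highest G and C share and the highest CpG count over its windows were taken. The medians of the members were 62.5% G and C and 27.5 CpG, against 64.7% and 24 over all genes. Members marked at a start and members not marked there had 27 and 28 CpG at the median. Another protein-coding gene had an end within 1 kb of an end of 22 of the 44 members (50%, 34.6 to 65.4), against 28.6% of all genes.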
